A study of Mus musculus with 6 samples.

Results

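Genes that brain astrocytes are known for, 10 in all, were followed through nuclei of the mouse brainstem: the glutamate transporters Slc1a2 and Slc1a3, the GABA transporter Slc6a11, the amino acid exchanger Slc7a10, the water channel Aqp4, the gap junction protein Gja1, the enzymes Glul and Aldh1l1, and the intermediate filament proteins Gfap and Vim. They were chosen by gene symbol, and all 10 were found among the 32285 genes of each of the 6 count matrices. Their transcripts were summed per library in 758 astrocyte-gated nuclei of 40139 kept nuclei, in the other classes of nuclei and over all nuclei. A gate here means that a nucleus was assigned from marker genes that are not among the 10.

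Nuclei were isolated from frozen pons and medulla of wild-type male C57BL6/J mice, sorted by flow cytometry to remove debris, and profiled with droplet 3' chemistry (10x Genomics). The CIH group had 3 libraries from mice kept in chronic intermittent hypoxia, a model of the repeated drops in oxygen of sleep apnoea, for 21 days from postnatal day 22 to 43. Each cycle lowered chamber oxygen to between 4.5 and 5% during 60 seconds of nitrogen, then brought it back to 21% with up to 5 minutes of air, and mice had 80 cycles in the 8 hours of each day's exposure. The Normoxia group had 3 libraries from mice of the same strain, sex and age that stayed in room air. Whether mice were pooled within a library is not given in the labels, so p-values measure the spread between libraries.

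The CIH libraries held 26733243 to 40750363 unique molecular identifiers (UMIs, each a single counted transcript) and the Normoxia libraries 30260893 to 46754345. The first CIH and the second normoxia library shared 1563 barcodes, 21.1% of the barcodes of that normoxia library, whereas the other 14 pairs of libraries shared 3 to 38. At these barcodes the CIH library had a median of 7.92 times as many UMIs. Of the 75 astrocyte-gated nuclei of the second normoxia library 6 were at shared barcodes, with 2.02% of those nuclei's UMIs. Results below keep them. Without them the log2 fold change between CIH and normoxia moved by at most 0.0106 for a member in astrocytes and 0.0308 over all nuclei, by at most 0.121 in the other classes, and the call stayed as it was for each member. The third CIH library also stood apart, with a median of 0.366% mitochondrial UMIs per nucleus, against 0.0919 and 0.0955% in the other CIH libraries and 0.0624 to 0.0915% in the normoxia libraries. Each comparison between groups is therefore also given without it.

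Astrocytes clear transmitters and potassium from the space around synapses. Slc1a2 (GLT-1) and Slc1a3 (GLAST) take up glutamate, Glul (glutamine synthetase) turns it into glutamine that returns to neurons, and Slc6a11 (GAT-3) takes up GABA. Slc7a10 (Asc-1) exchanges small neutral amino acids such as serine and glycine. Aqp4 lets water cross the endfeet that wrap blood vessels, and Gja1 (connexin 43) couples astrocytes into a network. Aldh1l1 is a folate enzyme widely used to label the cell type, and Gfap and Vim form the filaments whose increase is the classic sign of reactive astrocytes. In the brainstem, astrocytes also lie beside the neurons that sense carbon dioxide and set the rhythm of breathing.

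RefSeq promoters (GRCm38.p6, 250 bases before to 50 bases after a start site) were matched for 9 of the 10 genes, all but Aqp4. They were searched on both strands for TTCNNNGAA, the palindrome bound by STAT factors of the reactive astrocyte response, and for ACGTG and GCGTG, the cores of hypoxia response elements. TTCNNNGAA occurred in the promoters of 2 members, Gfap and Slc1a3, and in 8.30% of all 32851 promoters. ACGTG occurred in 1 member, Slc1a3, and in 19.6% of all promoters, and GCGTG occurred in 1 member, Gja1, and in 32.4%. The 3 promoters that hold a match are shown 5′ to 3′ because they bear on the reactivity and hypoxia that the study's design concerns, with the matches in capitals. The TTCNNNGAA match lies at -2 to 7 from the start site in Gfap and at -96 to -88 in Slc1a3, the ACGTG match of Slc1a3 lies at 31 to 35, and the match in Gja1, on the other strand, lies at -97 to -93. A match describes these letters and is not evidence of binding.
Gfap promoter, chr11:102897151-102897450, minus strand: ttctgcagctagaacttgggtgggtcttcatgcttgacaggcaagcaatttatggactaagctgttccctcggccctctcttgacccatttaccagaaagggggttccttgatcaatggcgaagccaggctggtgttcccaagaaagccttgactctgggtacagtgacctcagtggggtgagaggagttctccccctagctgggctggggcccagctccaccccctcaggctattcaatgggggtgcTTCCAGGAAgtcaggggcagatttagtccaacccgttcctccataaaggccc
Slc1a3 promoter, chr15:8710758-8711057, minus strand: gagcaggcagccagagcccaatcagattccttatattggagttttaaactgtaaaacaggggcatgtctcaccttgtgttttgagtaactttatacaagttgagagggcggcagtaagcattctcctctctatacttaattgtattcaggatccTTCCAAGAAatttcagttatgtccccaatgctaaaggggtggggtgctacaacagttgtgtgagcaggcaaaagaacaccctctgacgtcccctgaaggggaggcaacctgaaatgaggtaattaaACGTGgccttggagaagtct
Gja1 promoter, chr10:56377050-56377349, plus strand: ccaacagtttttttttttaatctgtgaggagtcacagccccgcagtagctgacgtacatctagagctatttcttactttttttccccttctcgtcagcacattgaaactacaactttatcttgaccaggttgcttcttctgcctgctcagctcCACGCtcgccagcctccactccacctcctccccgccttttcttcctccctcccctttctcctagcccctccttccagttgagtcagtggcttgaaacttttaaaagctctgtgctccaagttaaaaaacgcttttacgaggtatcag

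On GENCODE M21 gene models of mm10, the 3 genes with these promoters are Gfap at chr11:102887336-102900912 on the minus strand, Slc1a3 at chr15:8634124-8710764 on the minus strand and Gja1 at chr10:56377330-56402513 on the plus strand. The RefSeq start site of Gfap lies inside the GENCODE gene. The genes Vim (chr2:13573927-13582826), Slc1a2 (chr2:102658659-102790784), Glul (chr1:153899944-153909723), Slc7a10 (chr7:35186385-35201114), Slc6a11 (chr6:114131241-114249952) and Aldh1l1 (chr6:90486427-90600203) are on the plus strand, and Aqp4 is on chromosome 18. All are annotated as protein coding, and the matrices give 1 count per gene, with no split by exon or isoform.

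The astrocyte gate used 14 markers, among them Gpc5, Slc4a4, Slc39a12 and Sox9. A nucleus passed with at least 3 of these markers detected and with every other class at less than 0.5 times the share of its markers. It took 43, 59 and 428 nuclei (162696 to 1090193 UMIs) from CIH and 63, 75 and 90 (210915 to 255150 UMIs) from normoxia. Their median nucleus had 64.3% of the astrocyte markers in 5 libraries and 57.1% in the third CIH library. The median for the other classes' lists was 0 to 20.0%, highest for oligodendrocyte precursors. Summed oligodendrocyte markers (10 of 10 detected) came to 222 to 476 CPM (UMIs of a gene or list per 1000000 UMIs of the class) in the CIH libraries, highest in the third, and 243 to 326 in normoxia. Of the markers of Bergmann glia, the astrocytes of the neighbouring cerebellum, all 4 had UMIs, mostly of A2m and Hopx, and their sum was 105 to 202 CPM in CIH and 137 to 213 in normoxia.

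In astrocytes, 8 of the 10 genes had their highest level among the 8 classes with at least 20 nuclei in every library. Their ranges over the 6 libraries overlapped no other of those classes. Levels are CPM of the class, and comparisons between genes are not made, since a level depends on transcript length and priming. Slc1a2 lay between 3184 and 3755 in astrocytes, with a median of 3313, while the next of the 8 classes, endothelial nuclei, had 44.5 to 158. Slc6a11 lay between 771 and 1184 (median 966), against 9.19 to 24.0 in neurons without a transmitter call. Slc7a10 lay between 421 and 572 (median 450) in astrocytes, against 0 to 18.4 in microglia, the next class.

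Water transport and coupling divided the classes in a similar way. Aqp4 had 410 to 673 CPM in astrocytes (median 574), against 8.03 to 27.6 in microglia, the next in order. Gja1 had 350 to 403 (median 388), and was also present in endothelial nuclei at 26.8 to 116, a level above the 0 to 30.6 of microglia except where the ranges met. Gfap had 160 to 227 (median 196), against 5.95 to 30.6 in microglia. Aldh1l1 had 66.1 to 171 (median 130) and was followed by oligodendrocytes at 4.78 to 16.3. Below the first class, the ranges of neighbours in the order overlapped for Gfap, Aqp4, Slc1a2, Gja1, Slc7a10, Slc6a11 and Aldh1l1, so no order is read among those classes.

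Slc1a3 was divided differently between glia. It had 501 to 897 CPM in astrocytes (median 659), then 132 to 181 in microglia and 124 to 161 in oligodendrocytes. These ranges overlapped between microglia and oligodendrocytes, and both lay above endothelial nuclei (0 to 19.1) and all neuron classes. In the 126 fibroblast-gated nuclei, too few per library for a test, Slc1a3 had a median of 523 CPM over libraries (204 to 781) and Gja1 a median of 316 (95.6 to 528). Both ranges overlapped those of astrocytes. The 264 oligodendrocyte precursors, likewise too few, held Slc1a2 at 367 to 556 CPM, above the endothelial range and below that of astrocytes.

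Glul and Vim were not highest in astrocytes. Glul was ordered oligodendrocytes (302 to 468 CPM), astrocytes (247 to 381), microglia (154 to 315) and endothelial nuclei (90.8 to 233), each range overlapping the next, and the 4 neuron classes followed with a top of 78.7. Oligodendrocytes held 47.0 to 54.8% of all Glul UMIs of a library, and astrocytes held 1.7 to 5.2%. Vim was highest in endothelial nuclei at 166 to 428 CPM. Its astrocyte range was 3.92 to 31.0, which overlapped that of microglia (0 to 8.43).

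**Figure D1:**
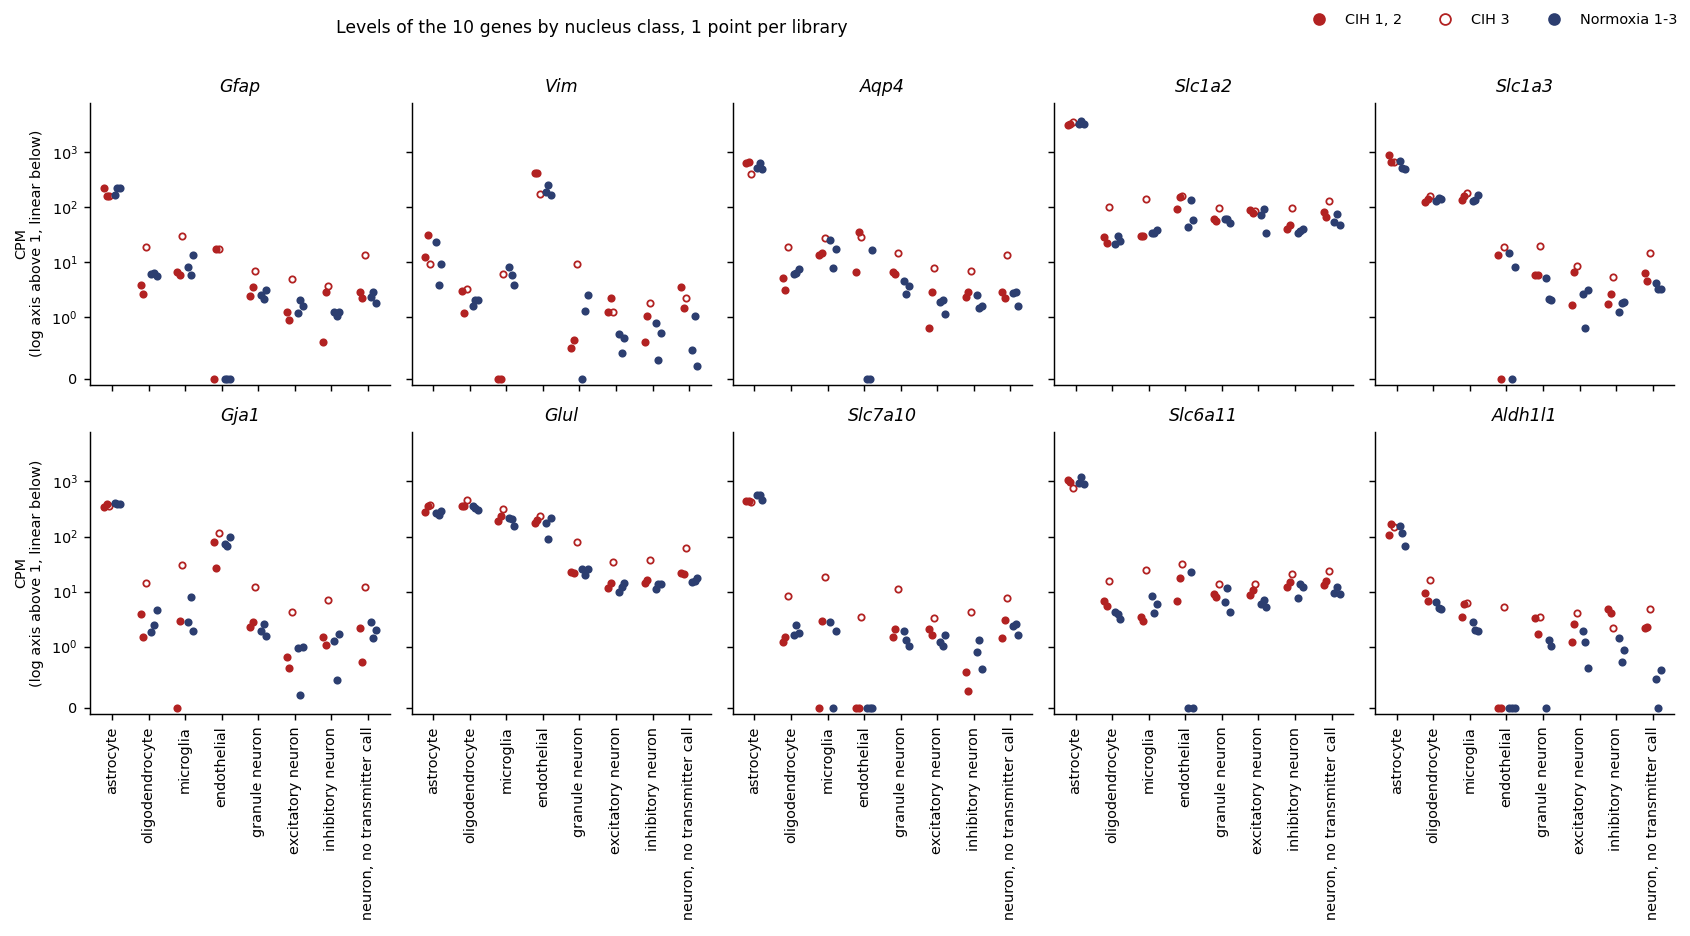
Level of each gene (CPM of the class, log axis above 1 and linear below) in 8 classes of nuclei, with 1 point per library, CIH in red (the third library open) left of Normoxia in blue. In all, 8 genes stand highest in astrocytes, Glul is shared with oligodendrocytes and Vim is highest in endothelial nuclei. The open point of the third CIH library is highest in 62 of the 70 gene and class pairs outside astrocytes, a count without a share over all genes.

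Summed per library, astrocyte-gated nuclei exceeded all other gated nuclei for all 10 members by edgeR's quasi-likelihood test with Benjamini-Hochberg adjustment, where 16.7% of the 17428 genes tested were called higher and 29.3% lower. The log2 fold change was 7.63 for Slc7a10 (SE 0.164), 6.66 for Aqp4 (SE 0.153), 6.53 for Slc6a11 (SE 0.139), 6.46 for Gja1 (SE 0.163) and 5.79 for Slc1a2 (SE 0.128). Gfap followed at 5.46 (SE 0.190), Aldh1l1 at 5.04 (SE 0.216) and Slc1a3 at 3.79 (SE 0.122). Vim, at 1.58 (SE 0.429, adjusted p = 0.00104), and Glul, at 1.32 (SE 0.123, adjusted p = 4.36e-21), were closest to the other nuclei. Under a stricter gate, with at least 5 markers, these last genes lost their call, at 0.27 for Vim (adjusted p = 0.850) and 0.46 for Glul (adjusted p = 0.143).

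In tests against single classes, in edgeR and relative to the scaling between those classes, Glul was lower in astrocytes than in oligodendrocytes (log2 fold change -0.73, SE 0.137, adjusted p = 5.44e-06), though its unscaled ranges overlapped. It was higher in astrocytes than in each of the other 6 classes. Vim was lower in astrocytes than in endothelial nuclei (-4.03, SE 0.386, adjusted p = 3.85e-14) and did not pass against microglia (1.64, SE 0.711, adjusted p = 0.0537). Slc1a3 exceeded its level in oligodendrocytes by 1.79 (SE 0.129) and that in microglia by 2.26 (SE 0.166) on the log2 scale. The other 7 members were higher in astrocytes than in all 7 classes. In these fits 20.2 to 23.5% of 16258 genes were called higher in astrocytes.

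Across class and library, the genes whose levels ran most like a member's were also named by rule (Pearson's r of log2 levels over 48 points of 8 classes in 6 libraries, 11497 genes, given as a description because points share libraries). Gfap was most like Gpr37l1 (r = 0.938) and Agt (0.929), Aqp4 most like Gpr37l1 (0.930) and Sdc4 (0.916), and Gja1 most like Tril (0.953) and Ppara (0.914). Slc1a2 was most like Atp13a4 (0.956) and Ttll8 (0.953), Slc7a10 most like Atp13a4 and Ccdc190 (both 0.950), and Slc6a11 most like F3 (0.937) and Phka1 (0.933). For Aldh1l1 the genes were Lgi4 (0.936) and Cbs (0.920), and for Slc1a3 Slc13a3 (0.931) and Hnrnpa2b1 (0.923). Glul ran most like Tsc22d3 (0.976) and Qk (0.966), and Vim most like Ahnak (0.934) and Id1 (0.924).

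Astrocyte-gated nuclei were not alike in these genes. Nuclei with at least 1 Gfap UMI numbered 7, 13 and 81 in CIH and 11, 15 and 12 in normoxia, and the remaining astrocyte nuclei 36, 46 and 347 in CIH and 52, 60 and 78 in normoxia. Aqp4 was higher in the nuclei with Gfap in 6 of 6 libraries, at a median of 1276 CPM over libraries, against 403 in those without. Vim was likewise higher in 6 of 6 libraries (median 50.9, against 3.34), on 1 to 5 UMIs per library in the nuclei with Gfap. Gja1 was higher in 5 of 6 (median 501, against 345).

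The uptake and exchange genes ran the other way. Slc6a11 was lower in the nuclei with Gfap in 6 of 6 libraries, at a median of 507 CPM, against 1128 in those without. Slc7a10 was lower in 6 of 6 (276, against 494), as was Glul (226, against 312), and Slc1a2 was lower in 5 of 6 (3076, against 3368). Slc1a3 and Aldh1l1 were each lower in 4 of 6. Nuclei with Gfap had more UMIs in the median in 5 of 6 libraries, and the part of depth in these differences was not tested. After thinning each nucleus to 1000 UMIs, the Spearman correlation of Gfap with Aqp4 over the nuclei of a library was 0.247 to 0.479 (41 to 382 nuclei), and that of Gfap with Slc6a11 was -0.335 to -0.0336. The other members did not keep 1 sign after thinning. The correlation with Gfap was -0.182 to 0.0211 for Slc7a10, -0.224 to 0.0749 for Glul, -0.224 to 0.0171 for Slc1a2 and -0.155 to 0.186 for Gja1. It was -0.0536 to 0.285 for Slc1a3, -0.143 to 0.326 for Aldh1l1 and, in the 4 libraries with a value, -0.0412 to 0.259 for Vim. Of the 36 pairs of members with a value in every library, Gfap with Aqp4 was the 1 pair that was positive in all 6. In the unthinned split the direction for Aqp4, Vim, Slc6a11, Slc7a10 and Glul was the same in each CIH and each normoxia library, and the split is a description made after the data were seen.

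**Figure D2:**
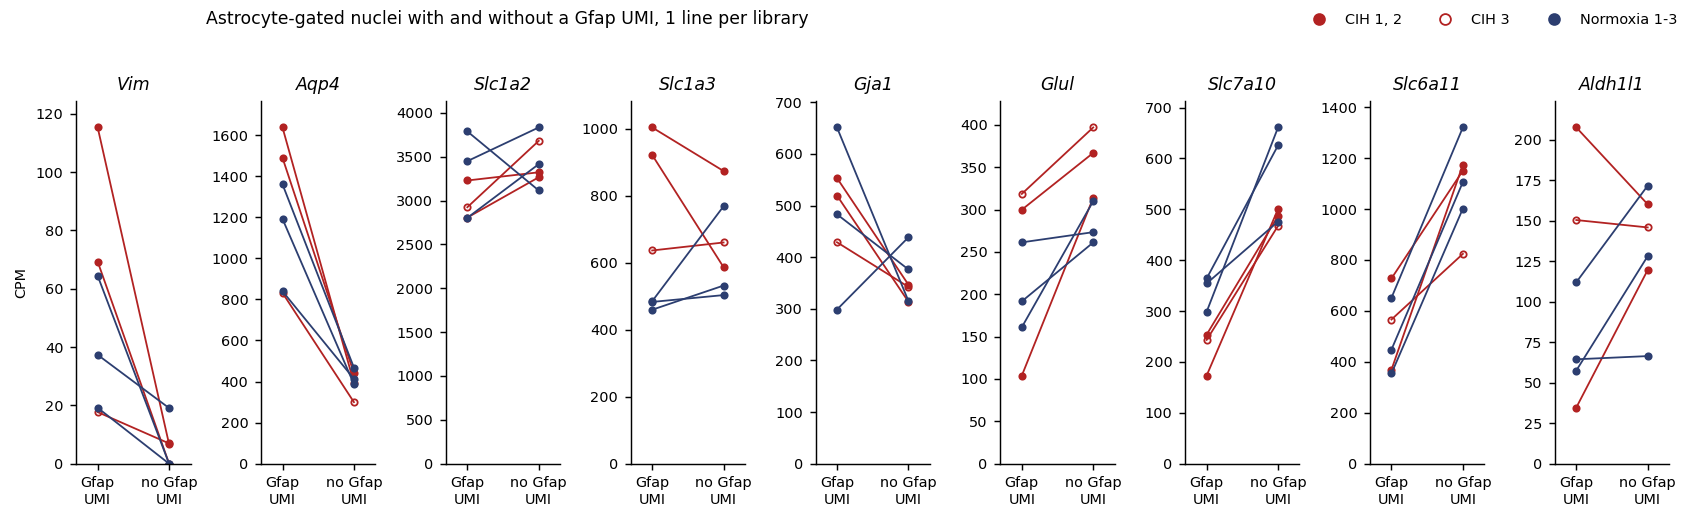
Level of 9 genes (CPM) in astrocyte-gated nuclei with a Gfap UMI, left, and without, right, with 1 line per library, CIH in red (the third library open) and Normoxia in blue. Aqp4 and Vim are higher with Gfap in 6 of 6 libraries, and Slc6a11, Slc7a10 and Glul are lower in 6 of 6.

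Between the groups, no member passed edgeR's test in astrocytes. Of 3866 genes tested 0% were called and 5.72% (221) had an unadjusted p under 0.05, and DESeq2 also called 0, with 83 at an unadjusted p under 0.05. Of the members, 9 passed the filter on low counts, 3 with a higher and 6 with a lower fitted level in CIH, and their adjusted p-values lay between 0.916 and 0.995. Their median log2 fold change was -0.0523, against 0.00160 over all genes tested, and without the third CIH library it was 0.0376. The smallest standard error was 0.136, for Slc1a2, and the largest 0.267, for Aldh1l1.

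Among the transporters, Slc1a2 had 3184, 3301 and 3523 CPM in CIH, against 3286, 3755 and 3325 in normoxia. The groups overlapped, with a log2 fold change of -0.05 (SE 0.136). Slc1a3 had 897, 662 and 656 in CIH and 697, 517 and 501 in normoxia, higher in the mean but overlapping through the first normoxia library. Its log2 fold change of 0.35 (SE 0.179) had an unadjusted p of 0.0642 in edgeR and an adjusted p of 0.916, and without the third CIH library it was 0.45 (SE 0.195, adjusted p = 0.663).

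Slc7a10 was the member whose groups did not overlap. It had 443, 435 and 421 CPM in CIH and 569, 572 and 458 in normoxia, a log2 fold change of -0.31 (SE 0.165, unadjusted p = 0.0696, adjusted p = 0.916 in edgeR). Every CIH library lay below every normoxia library for 5.35% of the genes tested, and groups apart in either direction made up 10.7%. Slc6a11 had 1076, 993 and 771 in CIH and 939, 1184 and 907 in normoxia, which overlapped, at -0.12 (SE 0.166) with all libraries and 0.04 (SE 0.178) without the third CIH library.

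Aqp4 had 627, 673 and 410 CPM in CIH and 522, 651 and 505 in normoxia. In the third CIH library it was the lowest of the 6, and the log2 fold change of -0.03 (SE 0.193) became 0.22 (SE 0.191) without that library. Gja1 had 350, 393 and 360 in CIH and 403, 384 and 392 in normoxia, at -0.10 (SE 0.167). The coupling gene thus varied little between libraries, and its groups overlapped.

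Of the enzymes, Glul had 277, 352 and 381 CPM in CIH and 270, 247 and 288 in normoxia, overlapping by a narrow margin. The log2 fold change was 0.36 (SE 0.182, unadjusted p = 0.0636, adjusted p = 0.916 in edgeR), and 0.24 (SE 0.226) without the third CIH library, in which summed oligodendrocyte markers were highest. The part of oligodendrocyte RNA in Glul was not tested. Aldh1l1 had 104, 171 and 147 in CIH and 156, 114 and 66.1 in normoxia, at 0.34 (SE 0.267).

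The filament genes did not separate the groups either. Gfap had 221, 160 and 161 CPM in CIH and 171, 227 and 222 in normoxia, at -0.26 (SE 0.212, adjusted p = 0.918 in edgeR), and the value was -0.13 (SE 0.260) without the third CIH library. With astrocytes taken as a cluster of nuclei formed without the 10 genes, 989 of them in the third CIH library, Gfap stood at -0.72 (SE 0.195, unadjusted p = 0.00189, adjusted p = 0.541 in edgeR). In that fit 0 of 6303 genes were called and 411 had an unadjusted p under 0.05. Vim had 18 UMIs in CIH astrocytes, or 12.4 CPM with a 95% Poisson interval of 7.38 to 19.7, and 8 UMIs in normoxia astrocytes, or 11.8 with an interval of 5.10 to 23.3. It failed the filter and was not tested, and its intervals cover counting error only.

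**Figure D3:**
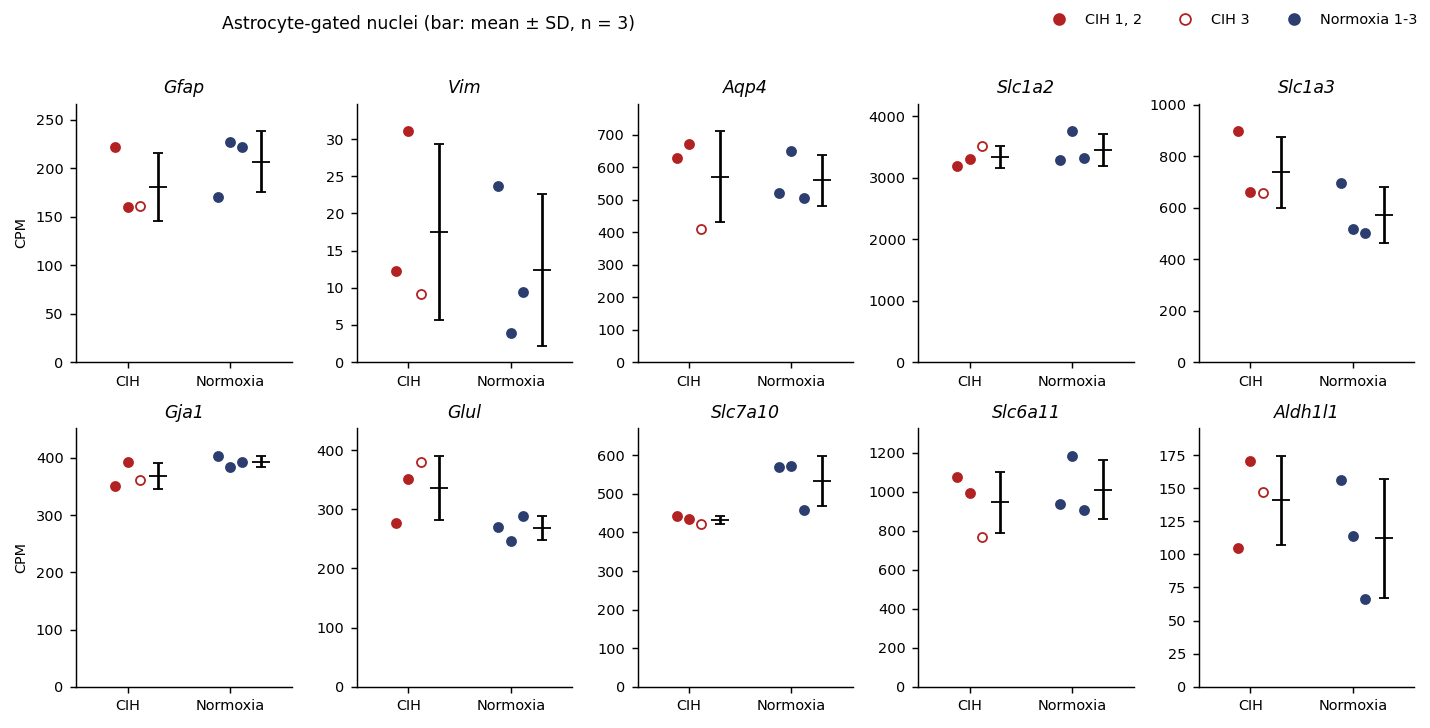
Level of each gene (CPM, axes from 0) in astrocyte-gated nuclei, with 1 point per library, CIH (red, the third library open) left of Normoxia (blue), and bars for the mean and SD of 3 libraries. The groups overlap for 9 genes, and for Slc7a10 the CIH libraries, at 421 to 443, lie below the normoxia libraries, at 458 to 572.

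The share of astrocyte nuclei with a UMI of each member was compared after thinning to 1000 UMIs, with 481 nuclei in CIH and 218 in normoxia (49 and 10 shallower nuclei left out). Slc1a2 was detected in 87.9 ± 4.25% of nuclei in CIH and 91.9 ± 1.58% in normoxia (SD, n = 3 each). In granule neurons, which should lack most of these genes, the thinned share over libraries was 4.62 to 10.5% for Slc1a2, 2.79 to 8.51% for Glul and at most 1.98% for the other 8. Slc6a11 was detected in 55.2 ± 5.86% and 58.7 ± 9.15% of CIH and normoxia astrocytes, Slc7a10 in 34.4 ± 4.06% and 40.5 ± 6.93%, Aqp4 in 34.7 ± 5.75% and 39.1 ± 5.09%, and Slc1a3 in 42.3 ± 3.63% and 34.6 ± 7.25%. Gja1 came to 27.3 ± 4.73% and 28.0 ± 2.23%, Glul to 27.9 ± 3.00% and 27.0 ± 7.04%, Aldh1l1 to 13.3 ± 3.11% and 9.39 ± 2.09%, and Gfap to 9.19 ± 3.62% and 9.98 ± 5.52%, always in CIH and then in normoxia. Vim came to 0.349 ± 0.605% in CIH and 1.40 ± 0.207% in normoxia. Its share in CIH astrocytes, at 0, 0 and 1.05%, was below that of granule neurons of the same library, at 0.225, 0.0962 and 1.39%. In normoxia astrocytes it was 1.59, 1.43 and 1.18%, with 0% in granule neurons of all 3 libraries, and each of these astrocyte shares was 1 nucleus, so no difference is read from them. No share passed the exact permutation test, whose smallest possible two-sided p with 3 libraries a group is 0.1, and the adjusted p over the 10 members was 0.5 to 1. Without thinning, at median depths of 2220 to 3752 UMIs per nucleus, the shares over the libraries were for example 92.1 to 100% for Slc1a2 and 13.3 to 22% for Gfap.

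Other genes of the same functions, taken from 4 lists, also gave no call in astrocytes. Of 16 genes for membrane transport and water 11 were tested, 5 higher and 6 lower. Beside 5.72% of all genes tested in astrocytes, 1 of the 11 had an unadjusted p under 0.05. That was Kcnj16, a subunit of pH-sensitive potassium channels, at 24.6, 56.9 and 55.0 CPM in CIH and 114, 78.4 and 104 in normoxia, which edgeR put at -0.98 on the log2 scale (SE 0.313, adjusted p = 0.631). Every CIH library was below every normoxia library, as for 5.35% of the genes tested. Slc7a11 (0.32, SE 0.206) and Slc38a1 (0.40, SE 0.308) were next in p, and their groups overlapped.

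Of 12 genes for coupling and endfeet 9 were tested, 4 higher and 5 lower, and 0 had an unadjusted p under 0.05. The scaffold gene Tjp1 stood at -0.28 (SE 0.179), Hepacam at 0.15 (SE 0.168) and Dtna at 0.09 (SE 0.143). Of 10 genes found for glutamate, glutamine and one-carbon metabolism 5 were tested, 2 of them with an unadjusted p under 0.05, beside 5.72% of all genes. Aldoc, the glycolytic aldolase of astrocytes, had 307, 347 and 397 in CIH and 270, 306 and 236 in normoxia, every CIH library above every normoxia library as for 5.3% of the genes tested, at 0.39 (SE 0.180, adjusted p = 0.866 in edgeR). Aldh1a1 stood at 0.37 (SE 0.164, adjusted p = 0.866), and Srr, the serine racemase, at -0.17 (SE 0.273).

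The reactive astrocyte list had 24 genes, of which 2 passed the filter. S100b, a calcium-binding protein, had 117, 129 and 95.4 CPM in CIH and 85.3, 78.4 and 70.8 in normoxia, at 0.46 (SE 0.269, adjusted p = 0.918 in edgeR). Its CIH libraries all lay above its normoxia libraries, as for 5.3% of the genes tested. Stat3 had 55.3, 56.9 and 78.0 in CIH and 71.1, 98.0 and 89.7 in normoxia, at -0.35 (SE 0.290, adjusted p = 0.918). The medians of the lists were -0.0205, -0.0170, -0.0298 and 0.0554 in the order given, beside 0.00160 for all genes tested.

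Over all nuclei the picture was different and, apart from Vim and only in part Aldh1l1, it turned on 1 library. All 10 members had a higher fitted level in CIH, with a median log2 fold change of 1.01 against 0.00579 for all genes, and 0 were called, where 0.0101% (2) of 19790 genes were called and 11% had an unadjusted p under 0.05. The third CIH library exceeded the mean of the other 5 by a ratio of 2.13 for Glul to 5.17 for Gja1. Slc1a2, for example, had 84.2, 92.1 and 308 CPM in CIH and 88.3, 92.1 and 66.8 in normoxia. Without that library the median of the members was 0.0867, 8 of 10 were higher, Gfap stood at -0.52 (SE 0.144, adjusted p = 0.136 in edgeR) and Slc7a10 at -0.14 (SE 0.235). The first and second CIH libraries differed in makeup. Granule neurons were 21.3 and 24.1% of their nuclei, against 4.89% in the third CIH library and 5.90 to 8.03% in normoxia. The part of this difference in the values without the third CIH library was not tested. In sums over a tissue, more cells of a type and more RNA per cell cannot be told apart.

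Astrocyte-gated nuclei made up 0.989, 1.33 and 4.02% of kept CIH nuclei and 1.34, 1.13 and 0.959% of kept normoxia nuclei, by library. The 95% Wilson interval was 3.66 to 4.41% in the third CIH library and lay within 0.735 to 1.71% in each of the others. The groups overlapped (difference 0.968 percentage points, exact permutation test, two-sided p = 0.5), and without the third CIH library the difference was 0.0131. That library's astrocytes also held 2.74% of its UMIs, against 0.613 and 0.684% in the other CIH libraries and 0.457 to 0.703% in normoxia. For Slc7a10, Aqp4, Gja1 and Slc6a11, medians of 33.7 to 46.1% of all UMIs of the gene came from gated astrocytes. Medians of 34.7 to 43.7% came from nuclei that passed no gate (28.0 to 50.2% over single libraries). The other members had lower astrocyte medians: 25.3% for Slc1a2, 22.3% for Gfap, 21.8% for Aldh1l1, 9.9% for Slc1a3, 2.5% for Vim and 1.8% for Glul. For Slc1a2 the median in neurons was 30.1%.

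Vim and Aldh1l1 were the members whose groups did not overlap over all nuclei, with every CIH library above every normoxia library, as for 9.86% of the genes tested. Vim had 5.65, 4.21 and 8.56 CPM in CIH and 2.23, 2.06 and 2.16 in normoxia, a log2 fold change of 1.52 (SE 0.273, unadjusted p = 0.000782, adjusted p = 0.262 in edgeR). Without the third CIH library it was called, at 1.18 (SE 0.175, adjusted p = 0.0198), and DESeq2 called it with all libraries (adjusted p = 0.000252). In that edgeR fit without the third CIH library 517 of about 19750 genes were called, and DESeq2 called 225 of 19790 with all libraries. The difference in granule neurons given above also applies to the fit without the third CIH library.

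Endothelial nuclei moved with Vim. They made up 1.77, 1.48 and 3.82% of nuclei in CIH and 0.809, 0.469 and 1.03% in normoxia, and they held 29.9 to 42% of Vim UMIs in CIH and 14.5 to 20% in normoxia. Nuclei that passed no gate held 31.9 to 42.5% of Vim UMIs in CIH and 37.3 to 51.3% in normoxia. Vim in these nuclei, summed over the libraries of a group, was 6.62 CPM in CIH and 2.65 in normoxia. Within endothelial nuclei Vim had 425, 428 and 177 CPM in CIH and 193, 250 and 166 in normoxia (0.72, SE 0.378, adjusted p = 0.763 in edgeR; 1.14, SE 0.306, adjusted p = 0.256 without the third CIH library). The part of endothelial nuclei, or of nuclei that passed no gate, in the total was not tested. Aldh1l1 had 5.01, 5.38 and 14.7 CPM over all nuclei in CIH and 4.43, 3.60 and 2.52 in normoxia, at 1.27 (SE 0.454, adjusted p = 0.413) and 0.56 (SE 0.223, adjusted p = 0.280) without the third CIH library.

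**Figure D4:**
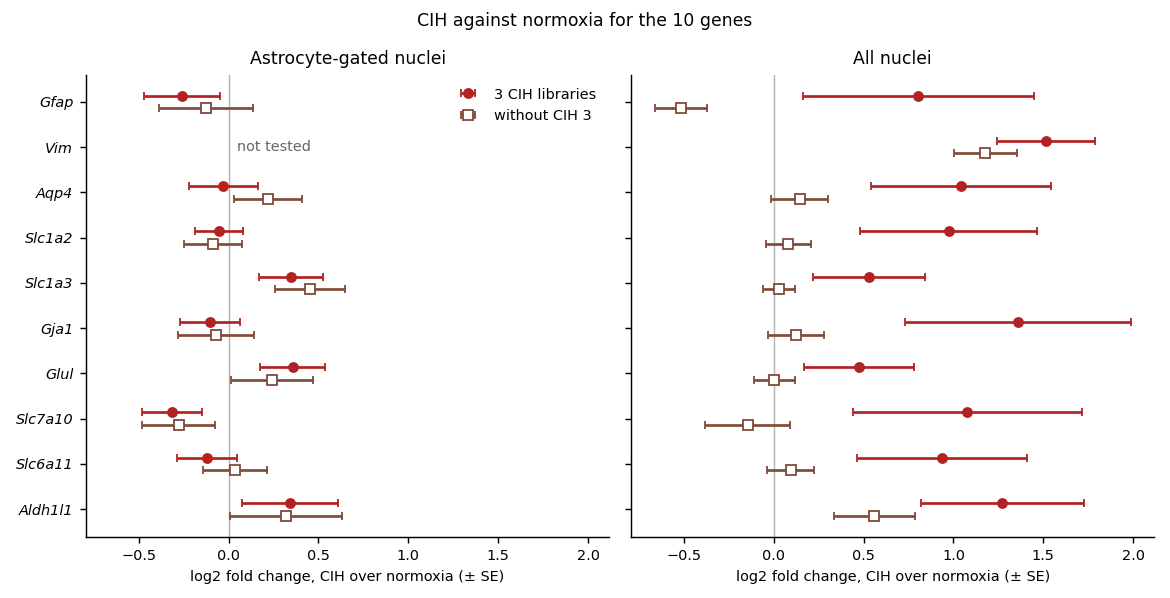
Log2 fold change of CIH over Normoxia (edgeR, bars ± SE) for each gene in astrocyte-gated nuclei, left, and in all nuclei, right, with the 3 CIH libraries (filled) and without the third (open). In astrocytes the values lie between -0.31 and 0.36 with all libraries, and in all nuclei the 10 filled points are above 0 while the open points, apart from Vim and Aldh1l1, lie between -0.52 and 0.14.

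In the other classes 0 of 34 member values that passed the filter were called, over the 7 classes with at least 20 nuclei in every library. In CIH 33 of them were higher, and 17 had an unadjusted p under 0.05. The median log2 fold change over all genes tested lay between -0.00829 (endothelial nuclei) and 0.00723 (oligodendrocytes). Some members passed the filter through the CIH libraries where they are high, so no result is read from counts of direction or p among the members. Over all genes, an unadjusted p under 0.05 was reached by 6.77% in endothelial nuclei, 7.21% in excitatory neurons, 6.51% in granule neurons, 6.81% in inhibitory neurons, 8.5% in neurons without a transmitter call, 4.68% in microglia and 5.63% in oligodendrocytes, and 0.00756% of genes in oligodendrocytes (1) and 0% in the others were called. The third CIH library was the highest of the 6 for 62 of all 70 pairs of a member and a class. The share over all genes is not given here, so this count is not read as particular to the members. Over the 33 values tested both ways the median log2 fold change was 0.78, and 0.21 without that library, when 27 of 33 were higher, 7 had an unadjusted p under 0.05 and 0 were called. Some of these levels in neurons were low: Slc1a3 in granule neurons, for instance, had at most 5.996 CPM outside the third CIH library, which had 19.8. Slc1a2 was higher, with means over libraries of 49.8 to 76.1 CPM in the neuron classes, and Glul had means of 16.2 to 32.2.

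Aldh1l1 in inhibitory neurons was among the pairs in which the third CIH library was not the highest. It had 4.75, 4.00 and 2.18 CPM in CIH and 1.46, 0.748 and 0.950 in normoxia, on 44 and 22 UMIs, and the third CIH library was the lowest of its group. Every CIH library lay above every normoxia library, as for 6.67% of the genes tested in this class. The log2 fold change was 1.73 (SE 0.411, unadjusted p = 0.00158, adjusted p = 0.626 in edgeR), and 2.04 (SE 0.420, adjusted p = 0.171) without the third CIH library. Its highest levels were those of the CIH libraries, so it passed the filter on low counts through the group where it is high. No difference is read from these values.

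In oligodendrocytes, where Glul is abundant, edgeR put its log2 fold change at 0.24 (SE 0.117, adjusted p = 0.890) and that of Slc1a3 at -0.00348 (SE 0.102). With replicate numbers as a block, a pairing that the labels do not give, 80 genes were called in this class in place of 1, none of them a member. Gfap and Aqp4 in oligodendrocytes changed sign without the third CIH library, at 0.62 and -0.92 for Gfap and at 0.56 and -0.73 for Aqp4, with and without it. The difference in CIH effect between astrocytes and oligodendrocytes was tested with limma for 8 members among 3731 genes, of which 0% were called and 5.66% had an unadjusted p under 0.05. It ranged from -1.19 (SE 0.651) for Slc6a11 to 0.38 (SE 0.305) for Slc1a3, with adjusted p-values of at least 0.888. Without the third CIH library Gfap (0.78, SE 0.352), Aqp4 (0.95, SE 0.425) and Gja1 (0.11, SE 0.571) changed sign, and 0 genes were called.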

How the data were processed

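The deposited matrices hold raw UMI counts per gene and barcode, made with Cell Ranger. Its version is 6.1.2 per the file headers, whereas the submitters' processing notes list 3.1.0, with Seurat 4.0 and mm10. Whether strand or intronic reads were counted is not given in the sources used here, and Gfap, Aqp4, Slc1a2, Glul, Slc7a10, Slc6a11 and Aldh1l1 overlap an annotated gene on the other strand (GENCODE M21). Barcodes under 500 genes or over 5% mitochondrial UMIs were dropped. Doublets were not removed; removing the top Scrublet scores (0.8% per 1000 barcodes) was an alternative. UMIs were summed per library and class and tested with edgeR 4.0.16 (R 4.3.3, quasi-likelihood, TMM scaling, filterByExpr, Benjamini-Hochberg, threshold 0.05), with DESeq2 1.42.0 as an alternative and limma 3.58.1 for the difference between classes. Clusters used scanpy 1.11.5 and leidenalg 0.10.2. Procedures were tested on simulated data. Whether replicate numbers pair the libraries is not given in the labels. Oligodendrocytes were the class in which all 3 correlations of deviations between libraries of the same number were over 0.1 (0.153, 0.239 and 0.445). Members named in every comparison were all 10; of each list the 3 of smallest p in astrocytes, and for each member the 2 most like it. Members, lists and tests were chosen with earlier results of these data known. Intervals cover counting error only.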

Additional observations from a re-analysis of the deposited data

How the results depend on the processing

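In astrocytes 128 of 133 member values under the alternatives (RLE scaling, DESeq2, the replicate block, genes of low count kept, each library left out, stricter nuclei, stricter gate, clusters, top doublet scores removed, and shared barcodes removed, the last chosen after seeing the data) kept their direction, 0 were called, and their smallest adjusted p was 0.541. The 5 that turned came from leaving out a library, with ranges of -0.17 to 0.22 for Aqp4, -0.086 to 0.00375 for Slc1a2 and -0.24 to 0.038 for Slc6a11. Over all nuclei the ranges with each library left out were -0.52 to 1.17 for Gfap and -0.14 to 1.45 for Slc7a10. In other classes they were -0.10 to 1.07 for Glul in granule neurons, -0.26 to 1.27 for Slc1a2 in microglia, and in oligodendrocytes -0.92 to 1.01 for Gfap, -0.73 to 0.93 for Aqp4, -0.10 to 0.068 for Slc1a3 and -0.22 to 1.74 for Gja1. For the difference between astrocytes and oligodendrocytes they were -0.59 to 0.78 for Gfap, -0.67 to 0.95 for Aqp4, -1.52 to 0.11 for Gja1 and -0.012 to 0.21 for Glul, alternatives likewise chosen after seeing the data. The cause of these shifts was not tested.

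Counts of called genes moved more than the members did. In astrocytes 1 gene was called with the replicate block and 8 without the filter, and 0 to 5 with a library left out, the highest without the third normoxia library. Over all nuclei the count was 225 in DESeq2, 0 with the block, 5 without the filter, 1 without shared barcodes, 1 with stricter nuclei, 0 without top doublet scores and 0 to 517 with a library left out, the highest without the third CIH library. DESeq2 called 18 genes in excitatory, 4 in granule, 6 in inhibitory and 20 in neurons without a transmitter call and 25 in oligodendrocytes. The block gave 4 in excitatory and 6 in inhibitory neurons, 13 in microglia and 80 in oligodendrocytes, and changed no member's call. With a library left out the counts were 0 to 72 in excitatory, 0 to 2 in granule, 0 to 10 in inhibitory and 0 to 102 in neurons without a transmitter call, 0 to 1 in microglia and 0 to 10 in oligodendrocytes, and without shared barcodes 1 in neurons without a transmitter call. Between astrocytes and other nuclei 4400 genes were called with the stricter gate, against 8021. Whether the replicate numbers pair the libraries was not settled. In astrocytes the correlations were 0.0133, 0.000905 and 0.207, and 1 of the 3 numbers was matched best by its own. Over all nuclei they were 0.0407, 0.19 and 0.205, with 2 of the 3 matched best by their own, and in oligodendrocytes all 3 were.

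Without thinning, the difference in detection, CIH minus normoxia in percentage points, changed sign for Gfap (2.15), Vim (2.19), Aqp4 (0.44) and Slc1a2 (0.15). With a library left out it ranged from -3.42 to 2.08 for Gfap, from -2.66 to 1.88 for Gja1 and from -1.97 to 4.78 for Glul. Depth limits the low members: Vim had 26 UMIs in all astrocyte-gated nuclei, and 2 of the 24 reactive astrocyte genes passed the filter.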
